A study of Homo sapiens with 72 samples.

Results

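Lysosome genes and targets of the transcription factors TFEB and TFE3 were followed in U2OS cells, a human osteosarcoma line, across 6 compounds and 3 doses. The 37 genes were a fixed list of symbols matched to Ensembl identifiers, out of 60279 Ensembl genes in the files, and all 37 were found. They comprise 3 transcription factors, 14 soluble hydrolases and their activators, 9 lysosomal membrane proteins, 5 subunits of the proton pump, 5 Rag GTPase and folliculin genes and the autophagy receptor SQSTM1. The list was chosen by a rule that names 1 measured value, the higher GPR137B level with 10000 nM MK-2206. No gene is therefore called in that comparison, and its count past the threshold is given as a description only. The rule also names GAA as the target of miglitol.

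The lysosome breaks down proteins, lipids, glycans and glycogen with hydrolases that work in acid, and the V-ATPase pumps the protons that make it acid. TFEB, TFE3 and MITF are related factors that bind CACGTG-type sites in the promoters of many lysosome genes. When nutrients and growth factors are plentiful, Rag GTPases bring the kinase mTORC1 and its substrates to the lysosome, where mTORC1 phosphorylates TFEB and keeps it in the cytoplasm. Folliculin (FLCN) and its partners FNIP1 and FNIP2 act on RRAGC and RRAGD in this step, and AKT, the kinase that MK-2206 inhibits, acts upstream of mTORC1.

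Population RNA-seq (poly-A selected mRNA from whole wells of 24-well plates, collected after 12 h of treatment) gave 72 libraries. 18 wells received DMSO, the solvent, and 3 wells each received 100 nM, 1000 nM or 10000 nM of 1 compound. The compounds were Triptolide (a covalent inhibitor of transcription), Homoharringtonine (an inhibitor of translation), Pyrazolanthrone (a JNK inhibitor), Nilotinib (a BCR-ABL kinase inhibitor), Miglitol (an alpha-glucosidase inhibitor) and MK-2206 (an allosteric AKT inhibitor). All groups are the same cell line with no engineered allele. Replicates are wells, and the labels do not say that they came from separate cultures, so p-values measure the spread between wells. Because whole wells were measured, fewer cells and less RNA per cell cannot be told apart.

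Library totals ran from 70767 to 68296309 expected counts and 3 wells stood apart as shallow. These were Triptolide 100 nM replicate 2 (70767), DMSO replicate 10 (460014) and Triptolide 1000 nM replicate 1 (9628355), and the fits were repeated without them. In Triptolide 100 nM replicate 2, 1 count equals 12.1 CPM and 7 of the 37 genes had no count. The mesenchymal markers VIM and SPARC had median DMSO levels of 1868 and 2137 TPM, and the bone matrix gene COL1A1 had 452. Of the osteoblast markers, SPP1 had a median of 12 TPM, RUNX2 of 3.81, ALPL of 3.79 and BGLAP of 0.425, while SP7 and IBSP were at 0. Of 8 markers of other cell types, EPCAM was highest at 2.38 TPM, followed by PMEL (0.745), CD79A (0.4), PECAM1 (0.11), MLANA (0.085) and PTPRC (0.035), with CD3E and ALB at 0. The slope of log2 expression on GC content, taken from each library's own counts, ran from -0.138 to 0.597 log2 units per 10 points of GC among DMSO wells. The fits were therefore repeated with that slope as a covariate. The 10000 nM Homoharringtonine wells ran from -0.33 to -0.185, below the DMSO range. At that dose the covariate cannot be told apart from the treatment. The 13 mitochondrial mRNAs made up 0.518% to 1.15% of counts in Triptolide wells against 0.138% to 0.367% in DMSO wells.

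In DMSO the 37 genes held 0.38% of all TPM, the unit that is comparable between genes because it is per length. CD63, a tetraspanin of late endosomes, was highest with a median of 590 TPM, followed by cathepsin B (CTSB, 506), prosaposin (PSAP, 495), the cholesterol carrier NPC2 (274) and SQSTM1 (267). These leading levels are not cleanly ordered, since CD63 lay above CTSB in 13 of 18 wells and CTSB above PSAP in 8 of 18. TFE3, at 86.4 TPM, was the most abundant of the 3 factors, with MITF at 6.32 TPM and TFEB at 4.71 TPM. GAA, the acid alpha-glucosidase that degrades glycogen, had 43.9 TPM, and GPR137B, a lysosomal membrane protein that acts on Rag GTPases, had 15.4 TPM. The pump subunit ATP6V0A1 was lowest at 0.545 TPM, which rests on 10 to 41 counts a well and no count in DMSO replicate 10. The order of medians was the same without DMSO replicate 10. GUSB levels are uncertain because its 18 named pseudogene copies held 34.2% of the summed counts. SQSTM1 shares 21% of its exon bases with the opposite-strand gene MRNIP, in a count whose strand setting is not stated. CTSD shares 22.9% and FLCN 11.9% of their exon bases with another gene on the same strand, which no strand setting would separate.

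**Figure D1:**
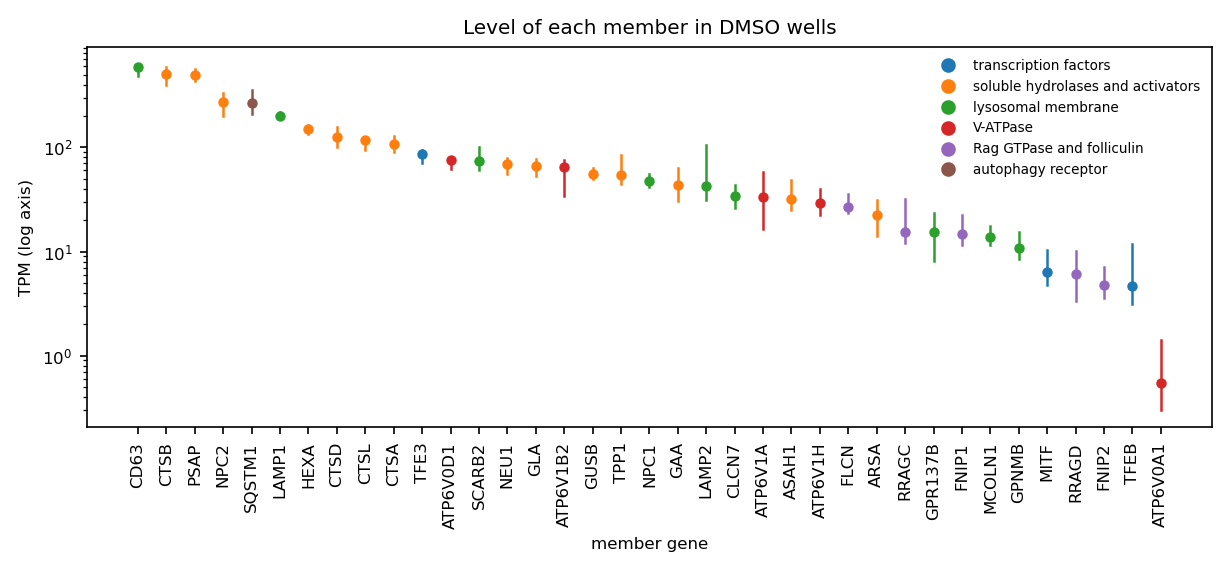
Levels of the 37 genes in DMSO wells, in TPM on a log axis, grouped by role. Points are medians and lines span the 17 wells without DMSO replicate 10. CD63 leads at 590 TPM and ATP6V0A1 is lowest at 0.545 TPM.

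The promoters show the sites these factors are known to bind, and a few are printed because such sites mark known targets of TFEB. RefSeq promoter windows (GRCh38.p14) matched 27 of the 37 genes, and the 250 bases before each start were searched on both strands for TCACGTG, which contains the shorter core CACGTG. The longer motif was found in 10 of the 27 genes, against 4.02% of 27305 genes with a promoter window. The list was chosen to hold TFEB targets, so a share above that of all genes is built in and is not a result. Among the 10 are the hydrolases GAA, CTSA and NEU1, the calcium channel MCOLN1, the Rag GTPase RRAGC and the folliculin partner FNIP1. The sequences run 5′ to 3′ on the gene's strand, and capitals mark the core.
GAA, chr17:80101493-80101567, plus strand: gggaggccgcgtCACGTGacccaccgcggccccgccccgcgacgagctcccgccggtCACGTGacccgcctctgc
CTSA, chr20:45891281-45891327, plus strand: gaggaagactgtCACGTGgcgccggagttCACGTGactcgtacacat
MCOLN1, chr19:7522571-7522623, plus strand: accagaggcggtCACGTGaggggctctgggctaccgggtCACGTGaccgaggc
NEU1, chr6:31862930-31862959, minus strand: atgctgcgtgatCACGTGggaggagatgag
RRAGC, chr1:38859867-38859896, minus strand: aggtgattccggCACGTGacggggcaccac
FNIP1, chr5:131797094-131797204, minus strand: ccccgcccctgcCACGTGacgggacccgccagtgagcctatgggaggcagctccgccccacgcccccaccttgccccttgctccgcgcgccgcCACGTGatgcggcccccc
GAA, CTSA, MCOLN1 and FNIP1 hold 2 sites each, and NEU1 and RRAGC hold 1. The windows of GPR137B, TFEB, TFE3, MITF and FLCN do not hold it, which says only that these letters are not there. Genes with the motif moved both ways. With 10000 nM Homoharringtonine 6 of the 10 were called higher and 4 lower, by a test described below that called 37% of all genes higher and 37.3% lower. GAA and CTSA, with 2 sites each, were among the lower ones, and FNIP1, also with 2, was among the higher.

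The 3 wells of a treatment were set against all 18 DMSO wells with edgeR's quasi-likelihood test on TMM-normalized counts, and a gene is called at a Benjamini-Hochberg adjusted p under 0.05 over all genes tested. All 37 genes were tested in every comparison, and the 18 comparisons share their DMSO wells. Differences are log2 fold changes (log2 FC) against DMSO ± SE, and levels by well are TMM-normalized CPM, a share of each library's mRNA. The map of all differences separates Triptolide and Homoharringtonine, under which most of the list moved, from the other 4 compounds.

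**Figure D2:**
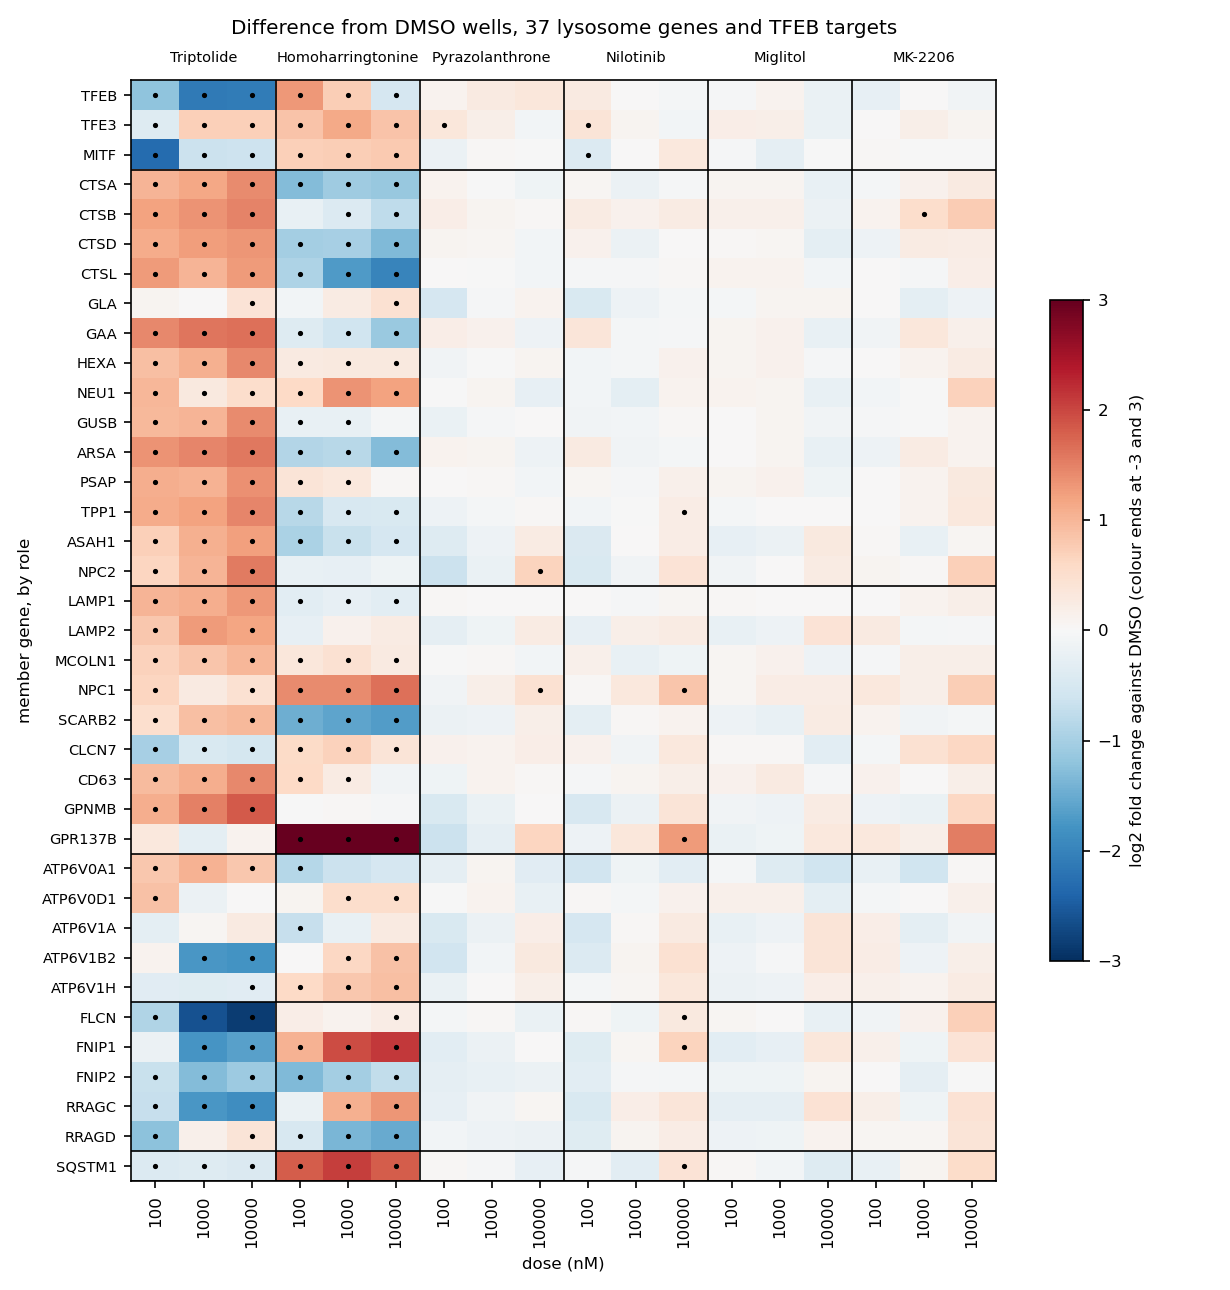
Log2 FC against DMSO of the 37 genes (rows, by role) for the 18 compound and dose groups (columns); colour runs from -3 to 3, and dots mark genes called, with none drawn for MK-2206 10000 nM, which the rule used. Triptolide columns show hydrolases higher and the Rag and folliculin genes mostly lower relative to the bulk of mRNA (all members lie lower when scaled to mitochondrial mRNAs), and GPR137B is highest under Homoharringtonine.

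Triptolide divided the list by role. Relative to the bulk of mRNA, most genes for hydrolases and membrane proteins took a larger share of what remained, while FLCN, FNIP2, RRAGC, TFEB and MITF took a smaller one at every dose. All of these lay lower at 10000 nM when scaled to mitochondrial mRNAs. At 100 nM 22 genes were called higher and 9 lower, against 24.4% and 32.4% of the 18471 genes tested, and without the shallow wells 22 and 8. At 1000 nM the counts were 21 higher and 9 lower (28.8% and 38.7% of all genes), and at 10000 nM 24 higher and 10 lower (32.4% and 39.7%). The median log2 FC of the 37 was 0.70, 0.84 and 0.82 over the rising doses, against -0.16, -0.22 and -0.16 for all genes tested.

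These directions depend on the reference. Scaled to the 13 mitochondrial mRNAs, the median of all genes shifted by -1.66, -2.47 and -2.77 log2 units over the rising doses. None of the 37 was then called higher, while 24, 37 and 37 were called lower. Of all genes, 14860 of 18471, 17751 of 18533 and 18178 of 18483 were called lower in those fits, so these counts are not particular to the 37. Scaled to library totals alone, the shifts were -0.33, -0.46 and -0.54. At 10000 nM 18 were then called higher and 11 lower, against 3329 and 9873 of 18483 genes. "Higher" under Triptolide is therefore used below only as a share of mRNA.

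All 14 hydrolase and activator genes were called higher at 10000 nM (32.4% of all genes). At 100 nM and at 1000 nM 13 of 14 were (24.4% and 28.8% of all genes). Under mitochondrial scaling, however, all 14 lay lower at 10000 nM. GAA measured 62.2, 84.5 and 113 CPM at its DMSO lowest, median and highest. The 10000 nM wells held 282, 272 and 297 CPM, above every DMSO well, for a log2 FC of 1.65 ± 0.12 (edgeR adjusted p 6.9e-12). At 100 nM GAA was already at 259, 206 and 226 CPM (1.44 ± 0.14, edgeR adjusted p 4.6e-09), so most of its change in share was present at the lowest dose, and at 1000 nM it stood at 1.59 ± 0.13 (6.2e-11). The second well at 100 nM rests on 17 counts, and without the shallow wells GAA stood at 1.48 ± 0.15 at 100 nM and 1.43 ± 0.15 at 1000 nM. Arylsulfatase A (ARSA) followed closely, with log2 FC of 1.34 ± 0.16, 1.46 ± 0.14 and 1.58 ± 0.13 (edgeR adjusted p 9e-08, 1.3e-09 and 7.3e-11), and 1.40 ± 0.15 at 100 nM without the shallow wells. The cathepsin CTSL stood at 1.27 ± 0.09 at 100 nM (edgeR adjusted p 4.1e-11), with wells at 244, 230 and 216 CPM above the DMSO range of 73.7 to 107, and at 1.27 without the shallow wells. GLA, the alpha-galactosidase, was the member of this group with the smallest difference, 0.40 ± 0.16 at 10000 nM.

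Among membrane proteins, 7 of 9 were called higher and 1 lower at 10000 nM (32.4% and 39.7% of all genes), and all 9 lay lower under mitochondrial scaling. GPNMB, a glycoprotein of lysosomes and melanosomes, had the largest rise in share of the whole list, from a DMSO median of 17.4 CPM to 69.6, 67.7 and 58.7 CPM. Its log2 FC was 1.84 ± 0.14 (edgeR adjusted p 1.9e-11), after 1.10 ± 0.18 at 100 nM and 1.51 ± 0.15 at 1000 nM (4.3e-09). The chloride-proton exchanger CLCN7 was the one called lower, at -1.01 ± 0.17, -0.45 ± 0.14 and -0.53 ± 0.14. GPR137B was not called at any Triptolide dose, with log2 FC of 0.32, -0.30 and 0.10.

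The pump genes split. ATP6V1B2, a subunit of the catalytic V1 part, fell to -1.75 ± 0.27 and -1.80 ± 0.25 at 1000 nM and 10000 nM. ATP6V0D1 and ATP6V0A1, of the membrane part, were called higher at 100 nM (0.89 ± 0.12 and 0.81 ± 0.34), and ATP6V0D1 was not called at the higher doses. Under mitochondrial scaling all 5 lay lower at 10000 nM.

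FLCN showed the largest fall of the list. It measured 36.9, 44.6 and 54.0 CPM at its DMSO lowest, median and highest, and 7.27, 5.57 and 6.99 CPM at 10000 nM, a 7.2-fold lower share (log2 FC -2.85 ± 0.13, edgeR adjusted p 9.1e-16). The wells at 100 nM held 27.7, 36.3 and 20.04 CPM, the second from 3 counts in the shallow replicate 2. The log2 FC went from -0.91 ± 0.14 there to -2.60 ± 0.18 at 1000 nM (edgeR adjusted p 2.4e-12), and without the shallow wells it was -0.93 ± 0.14 at 100 nM. FNIP1 was not called at 100 nM (-0.18 ± 0.22) and fell to -1.77 ± 0.23 (edgeR adjusted p 2e-07) and -1.64 ± 0.20 at the higher doses. RRAGC fell at all 3 doses, to -1.87 ± 0.21 at 10000 nM (edgeR adjusted p 1.4e-08), where its wells at 9.13, 8.01 and 7.94 CPM lay below the DMSO minimum of 21.9. FNIP2 also fell at all doses, with -1.31 ± 0.19 at 1000 nM. RRAGD behaved differently, at -1.22 ± 0.19 at 100 nM (edgeR adjusted p 5.5e-06), 0.15 ± 0.16 at 1000 nM and 0.39 ± 0.12 at 10000 nM, the last turning to -0.15 when library totals alone were used. Without the shallow wells RRAGD stood at -1.20 ± 0.18 at 100 nM.

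TFEB fell at every Triptolide dose. Its DMSO lowest, median and highest were 3.39, 4.95 and 19.3 CPM, the last from DMSO replicate 10, without which the highest was 5.53. At 10000 nM the wells held 0.834, 1.38 and 1.23 CPM, below every DMSO well. The log2 FC was -1.22 ± 0.32, -2.12 ± 0.34 and -2.11 ± 0.28 over the rising doses (edgeR adjusted p 0.0021, 5.9e-06 and 2.4e-07), and -1.15 ± 0.21 and -2.54 ± 0.24 at 100 nM and 1000 nM without the shallow wells. MITF fell most at the lowest dose, with wells at 2.45, 0 and 1.44 CPM at 100 nM and a log2 FC of -2.31 ± 0.22 (edgeR adjusted p 3.2e-09), against -0.64 and -0.62 at 1000 nM and 10000 nM (0.00052 and 0.00014). Without the shallow wells its log2 FC at 100 nM was -2.30. TFE3 changed direction with dose, from -0.39 ± 0.12 at 100 nM (edgeR adjusted p 0.008, a call lost without replicate 1) to 0.72 ± 0.09 at 1000 nM and at 10000 nM (2.5e-07 and 1.7e-07), values of -1.75 and -2.09 under mitochondrial scaling and, at 10000 nM, 0.17 and not called with library totals alone. SQSTM1 was called lower at each dose, by 0.39 to 0.44 on the log2 scale, a call lost at 100 nM without the shallow wells (-0.34 ± 0.16, edgeR adjusted p 0.069).

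Over log10 of the Triptolide dose, 4 of the 37 genes had a rising and 6 a falling trend (7.09% and 18.1% of all genes). The steepest falls among called trends, per 10-fold dose, were FLCN (-0.998 ± 0.19, edgeR adjusted p 0.0021), ATP6V1B2 (-0.97 ± 0.18, 0.0014) and FNIP1 (-0.73 ± 0.18, 0.0088). The steepest rises among called trends were RRAGD (0.70 ± 0.20, edgeR adjusted p 0.023), TFE3 (0.47 ± 0.13, 0.022) and NPC2 (0.42 ± 0.12, 0.024), of which TFE3 and NPC2 turned to -0.037 and -0.094 under mitochondrial scaling. Without Triptolide 100 nM replicate 3, 2 trends were called, both falling, and without replicate 1 of that dose 6 were called.

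Homoharringtonine gave a different pattern, led by GPR137B. SQSTM1, NPC1 and FNIP1 rose at every dose, the cathepsin genes CTSA, CTSD and CTSL and the membrane protein SCARB2 fell at every dose, and TFE3 and MITF rose. At 100 nM 14 genes were called higher and 14 lower (31.3% and 32.5% of 18786 genes), at 1000 nM 17 and 13 (35.1% and 33.6%), and at 10000 nM 16 and 13 (37% and 37.3%). The median log2 FC of the 37 was -0.08, 0.12 and 0.04, close to the -0.03, -0.01 and -0.04 of all genes. The median of all genes shifted by -0.22 and -0.14 at the lower doses with library totals alone, and by -0.28 at 10000 nM under mitochondrial scaling. That scaling gave 9 higher and 13 lower at 10000 nM, against 5301 and 7429 of 19268 genes.

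GPR137B rose more than any other member at each dose. Its DMSO wells ran from 7.97 to 54.4 CPM with a median of 14.3, the highest being the 31 counts of DMSO replicate 10, and without that well the highest was 23.1. The wells held 482, 426 and 302 CPM at 100 nM, 351, 823 and 939 at 1000 nM, and 499, 504 and 517 at 10000 nM, each above every DMSO well. The log2 FC was 4.68 ± 0.24, 5.47 ± 0.26 and 4.98 ± 0.24 (edgeR adjusted p 1.4e-14, 3.8e-15 and 3.3e-15), and no trend over dose was called. With the GC slope as a covariate it was 4.30, 4.87 and 4.09, and under mitochondrial scaling 4.61, 5.29 and 4.74. The GC slopes of the 10000 nM wells lay below the DMSO range, so that covariate cannot be told apart from the treatment there.

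**Figure D3:**
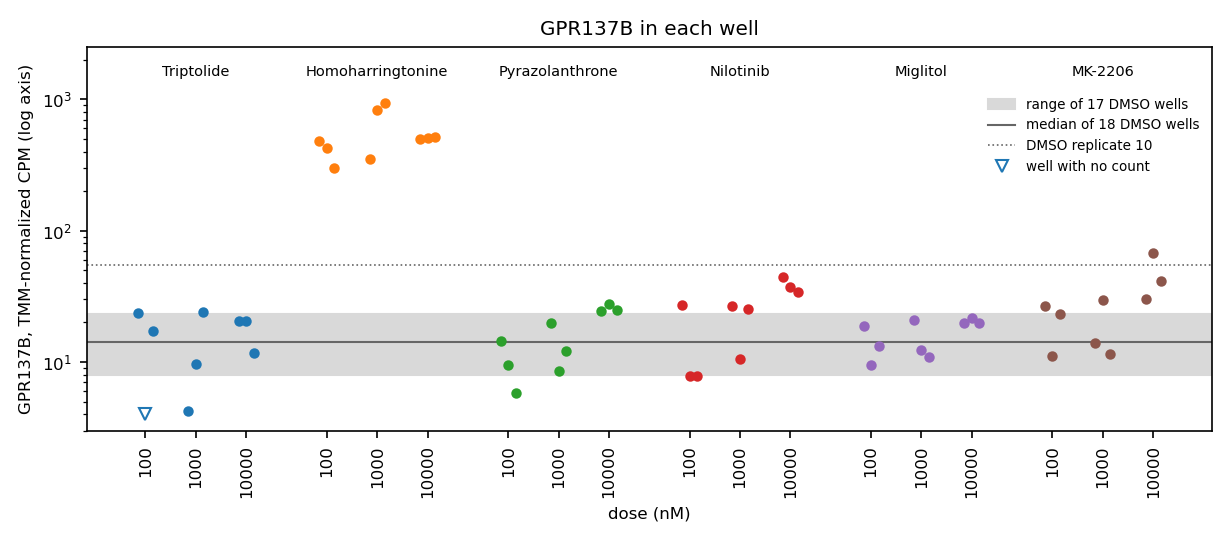
GPR137B in each well, in TMM-normalized CPM on a log axis, by compound and dose; the grey band is the range of 17 DMSO wells, the dotted line is DMSO replicate 10 and a triangle marks a well with no count. Homoharringtonine wells lie between 302 and 939 CPM, and the Nilotinib and MK-2206 wells at 10000 nM lie above the band, between 30.0 and 67.5 CPM.

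SQSTM1, the receptor that links ubiquitinated cargo to autophagosomes, rose at every dose. From 306 to 492 CPM in DMSO it went to 1260, 1318 and 1554 CPM at 100 nM, all above the DMSO wells, with log2 FC of 1.81 ± 0.12, 2.08 ± 0.12 and 1.82 ± 0.11 (edgeR adjusted p 1.3e-12, 3.4e-13 and 2.3e-13). NPC1, which exports cholesterol from lysosomes, rose by 1.42 ± 0.11, 1.43 ± 0.12 and 1.66 ± 0.11, and its 10000 nM wells at 301, 293 and 296 CPM stood above the DMSO maximum of 112. FNIP1 rose with dose, from 1.04 ± 0.17 to 1.95 ± 0.17 and 2.11 ± 0.15 (edgeR adjusted p 4.1e-10 and 6.8e-12 at the last doses), a 4.33-fold rise at 10000 nM. RRAGC was not called at 100 nM (-0.19 ± 0.18) and rose to 1.06 ± 0.18 and 1.33 ± 0.16. RRAGD and FNIP2 moved the other way, RRAGD to -1.37 ± 0.15 at 1000 nM and -1.51 ± 0.14 at 10000 nM (edgeR adjusted p 1.1e-08 and 1e-09) and FNIP2 to -1.32 ± 0.13 at 100 nM (3.2e-09). The Rag and folliculin genes thus split 3 higher and 2 lower at 10000 nM, against 37% and 37.3% of all genes. FLCN, 1 of the 3, had a log2 FC of 0.22 that turned to -0.09 under mitochondrial scaling.

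Of the 14 hydrolase and activator genes, 3 were called higher and 8 lower at 10000 nM, against 37% and 37.3% of all genes. CTSL fell most, from a DMSO median of 97.9 CPM to 49.4, 48.7 and 52.9 at 100 nM and 24.9, 25.2 and 23.9 at 10000 nM, with no overlap at any dose. Its log2 FC was -0.92 ± 0.09, -1.70 ± 0.10 and -1.98 ± 0.10 (edgeR adjusted p 2e-13 and 7.5e-15 at the last doses), a 3.96-fold fall. SCARB2, the receptor that carries beta-glucocerebrosidase to lysosomes, fell by 1.47 ± 0.13, 1.59 ± 0.14 and 1.69 ± 0.14 on the log2 scale (edgeR adjusted p 5.4e-10, 5.1e-10 and 5.9e-11). CTSA, the protective protein that stabilises NEU1, fell to -1.30 ± 0.13 at 100 nM (edgeR adjusted p 7.7e-09), while the sialidase NEU1 rose by 0.61, 1.35 and 1.203. GAA fell by 0.39, 0.60 and 1.11 on the log2 scale, and its 10000 nM wells at 42.4, 39.4 and 42.4 CPM lay below every DMSO well. Of the 5 V-ATPase genes 3 were called higher and none lower at 10000 nM, beside the same shares of all genes. ATP6V1H led at 0.90 ± 0.14, with ATP6V1B2 at 0.88 ± 0.20.

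The 3 factors were called higher at 100 nM and at 1000 nM. TFE3 rose by 0.86 ± 0.10, 1.12 ± 0.11 and 0.87 ± 0.09 and MITF by 0.71 ± 0.11, 0.74 ± 0.12 and 0.79 ± 0.11, and at each dose all wells of both genes lay above the DMSO range. TFEB went from 10.5, 11.3 and 13.8 CPM at 100 nM to 4.14, 2.91 and 3.29 CPM at 10000 nM. Its log2 FC was 1.31 ± 0.19, 0.74 ± 0.22 and -0.50 ± 0.22 (edgeR adjusted p 1.9e-06, 0.004 and 0.045). The call at 10000 nM was lost with DESeq2 (adjusted p 0.0588) and without replicate 2 or without replicate 3. It was also lost with the GC slope as a covariate (-0.10, edgeR adjusted p 0.706), which cannot be told apart from the treatment at that dose.

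Over log10 dose of Homoharringtonine, 9 of the 37 genes had a rising and 7 a falling trend (21.1% and 22.9% of all genes). Library totals alone gave 14 and 6, against 5384 and 2811 of 18276 genes. Without Homoharringtonine 100 nM replicate 3 the trend was called for 9 genes. TFEB fell most steeply, by 0.92 ± 0.12 per 10-fold dose (edgeR adjusted p 0.00025), followed by CTSL (-0.55 ± 0.07, 0.00024) and RRAGD (-0.53 ± 0.11, 0.0028). RRAGC (0.74 ± 0.14, edgeR adjusted p 0.0019), FNIP1 (0.52 ± 0.15, 0.014) and ATP6V1A (0.48 ± 0.13, 0.010) had the steepest rises among called trends.

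Triptolide and Homoharringtonine wells were also compared directly at matched doses, a test that uses no DMSO well. Triptolide was higher for 21, 19 and 20 of the 37 genes over the rising doses and lower for 10, 13 and 13, against 29.9%, 27.9% and 41.4% of all genes higher and 36%, 39% and 47% lower. Under mitochondrial scaling, which shifted the median of all genes by -1.65, -2.40 and -2.59, the split was 4, 0 and 2 higher against 23, 26 and 30 lower. Those fits called 646, 272 and 811 of all genes higher. They called 12720 of 16427, 14083 of 17666 and 15602 of 17641 lower. At 10000 nM CTSL stood 3.35 ± 0.07 higher with Triptolide (10.2-fold, edgeR adjusted p 1.7e-11), ARSA 2.96 ± 0.08 (8e-11) and GAA 2.85 ± 0.07 (3.6e-11), values of 0.76, 0.37 and 0.25 under mitochondrial scaling. GPR137B stood -4.78 ± 0.18 (27.4-fold lower with Triptolide, edgeR adjusted p 6.5e-10), FNIP1 -3.66 ± 0.09 (3.8e-11) and RRAGC -3.11 ± 0.13 (1.1e-09). GPR137B also led the lower side at 100 nM (-4.24 ± 0.27, edgeR adjusted p 2.6e-10) and at 1000 nM (-5.75 ± 0.68, 0.00011). On the higher side CTSA led at 100 nM (2.41 ± 0.21, edgeR adjusted p 1.2e-08) and CTSL at 1000 nM (2.71 ± 0.17, 4e-06), values of 0.77 and 0.33 under mitochondrial scaling. MITF and TFEB were lower with Triptolide at every dose, whereas TFE3 was lower at 100 nM (-1.16 ± 0.18, edgeR adjusted p 2e-05) and not called at 1000 nM (-0.41 ± 0.17, 0.055) or 10000 nM (-0.06 ± 0.07, 0.41).

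**Figure D4:**
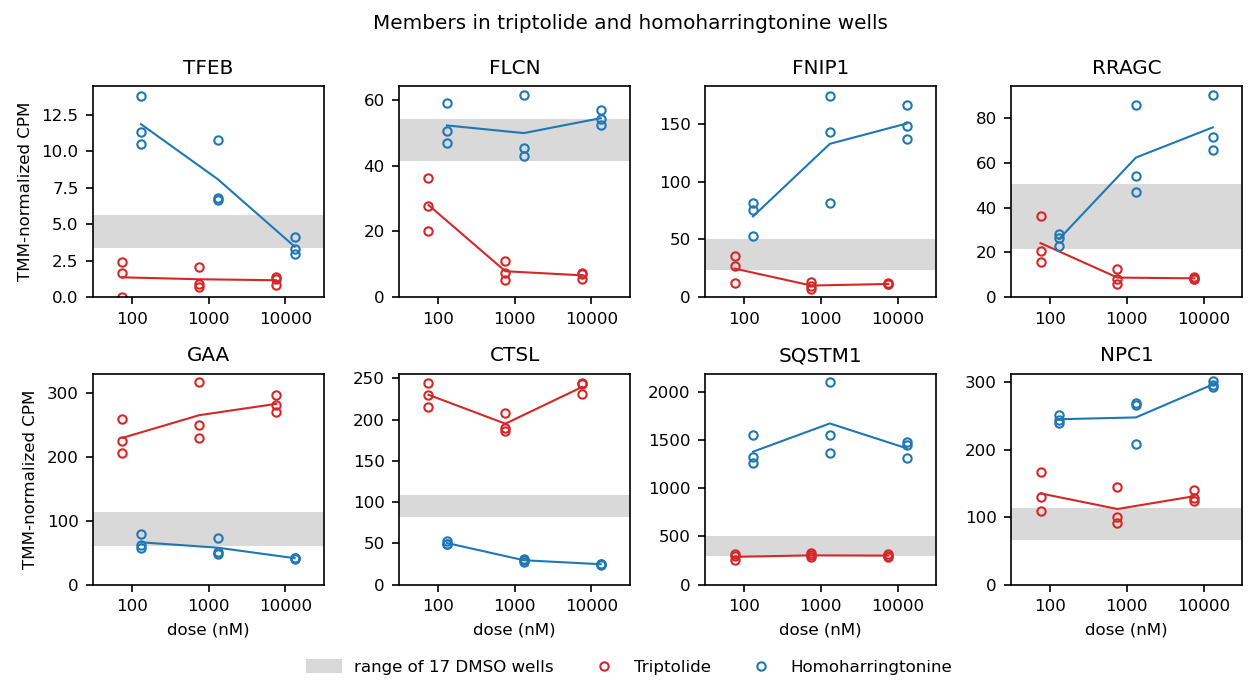
Levels of TFEB, FLCN, FNIP1, RRAGC, GAA, CTSL, SQSTM1 and NPC1 by well (TMM-normalized CPM) against dose for Triptolide (red) and Homoharringtonine (blue); lines join means and the grey band is the range of 17 DMSO wells. GAA and CTSL lie above the band with Triptolide and below it at 10000 nM Homoharringtonine, while FNIP1 and RRAGC lie the other way round at that dose. The Triptolide rises of GAA and CTSL are shares of mRNA. Their log2 FC turns negative under mitochondrial scaling, though at 100 nM neither is called lower.

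Nilotinib raised a small set. At 10000 nM 6 of the 37 were called higher and 0 lower with edgeR (8.04% and 6.43% of 18562 genes). Without any 1 of its wells, 2 to 3 of the 37 were called. GPR137B led, with wells at 44.2, 37.2 and 34.0 CPM that lie above the 17 other DMSO wells but below DMSO replicate 10. Its log2 FC was 1.28 ± 0.29 (edgeR adjusted p 0.0031), 1.02 with the GC slope as a covariate and 1.34 without the shallow wells. NPC1 rose by 0.84 ± 0.12 (edgeR adjusted p 2.7e-05), from a DMSO range of 57.9 to 112 CPM to 176, 160 and 156. FNIP1 rose by 0.68 ± 0.17 (edgeR adjusted p 0.0078), a call lost without replicate 1 or replicate 2. SQSTM1 (0.41 ± 0.12), FLCN (0.30 ± 0.09) and the peptidase TPP1 (0.22 ± 0.06) were the other calls. TFEB, TFE3 and MITF had log2 FC of -0.07, -0.08 and 0.31 and were not called. At 100 nM TFE3 was called higher (0.39 ± 0.11, edgeR adjusted p 0.028) and MITF lower (-0.41 ± 0.13, 0.043), 1 gene each way against 5.57% and 3.6% of all genes. Both calls were lost without replicate 2 or without replicate 3, while leaving out replicate 1 gave 11 calls. At 1000 nM none of the 37 was called by edgeR (3 at unadjusted p under 0.05) or by DESeq2, against 2.42% of all genes higher and 1.73% lower.

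MK-2206 at 10000 nM is the comparison that the choice of genes used. GPR137B held 30.0, 67.5 and 41.4 CPM in its wells, all above the 23.1 that bounds 17 DMSO wells, and 1 of them above DMSO replicate 10. The log2 FC was 1.53 ± 0.30 (2.89-fold), 1.64 with the GC slope as a covariate and 1.61 without the shallow wells and 1.195 without its highest well, replicate 2. In the same fit 10 of the 37 lay past the threshold on the higher side and 0 on the lower, beside 2.21% and 0.966% of 18522 genes. That threshold is the adjusted p under 0.05 used for calls elsewhere. The rule used this comparison, so the count is not a test of the list. It was 5 to 8 with 1 well left out. With the GC slope as a covariate it was 18, beside 1019 higher and 1053 lower of 18522 genes. These values are given as a description and nothing is read from them. Among the higher values were CTSB (0.76 ± 0.08), NPC1 (0.75 ± 0.13), FLCN (0.72 ± 0.09), NPC2 (0.71 ± 0.18), NEU1 (0.70 ± 0.10), CLCN7 (0.62 ± 0.12), GPNMB (0.62 ± 0.16), SQSTM1 (0.55 ± 0.12) and TPP1 (0.31 ± 0.07). CTSB measured 1000, 926 and 951 CPM against a DMSO maximum of 673, and FLCN 80.4, 69.4 and 78.8 against 54.0, so neither overlapped with DMSO. TFEB (-0.11 ± 0.22), TFE3 (0.09 ± 0.10) and MITF (-0.01 ± 0.12) lay near 0.

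The lower MK-2206 doses were not used in the choice. CTSB rose at 1000 nM, with wells at 878, 727 and 871 CPM above every DMSO well and a log2 FC of 0.53 ± 0.09 (edgeR adjusted p 0.0023). That call was lost without replicate 1 (edgeR adjusted p 0.0618). It was the 1 gene of the 37 called higher, with 0 lower, against 1.07% and 0.374% of all genes. GPR137B was not called at 1000 nM, where its wells held 13.9, 29.8 and 11.6 CPM (0.18 ± 0.34, edgeR adjusted p 0.88), and without replicate 2 its log2 FC was -0.27. Nor was it called at 100 nM, with 26.5, 11.1 and 23.3 CPM (0.32 ± 0.33, edgeR adjusted p 0.80). At 100 nM edgeR called 0 of the 37 (1 at unadjusted p under 0.05, and 0 with DESeq2), against 0.0866% of all genes higher and 0.00541% lower.

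**Figure D5:**
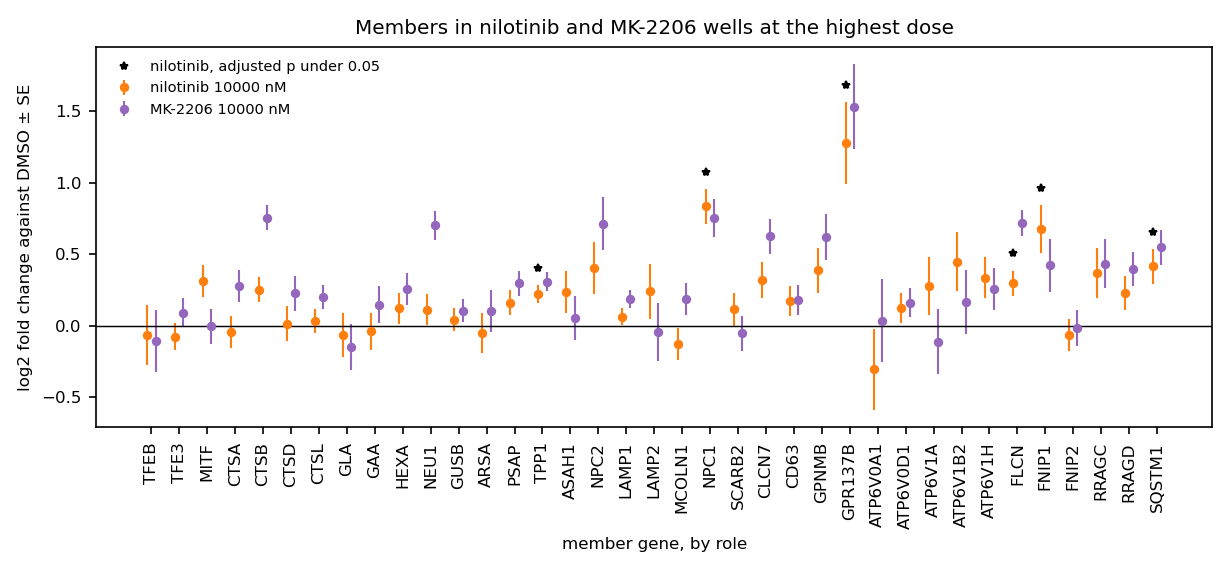
Log2 FC ± SE against DMSO of the 37 genes at 10000 nM Nilotinib and 10000 nM MK-2206; stars mark Nilotinib calls, and MK-2206 carries no call because the rule used it. GPR137B is the largest value for both, at 1.28 and 1.53.

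Pyrazolanthrone moved few members. At 10000 nM NPC2 (0.66 ± 0.17, edgeR adjusted p 0.0198) and NPC1 (0.45 ± 0.12, 0.0214) were called higher and 0 lower, against 3.29% and 4.47% of all genes, and both calls were lost without any 1 of its wells. GPR137B held 24.3, 27.7 and 25.0 CPM there, above 17 of the DMSO wells, with a log2 FC of 0.64 ± 0.29 that did not pass the test (edgeR adjusted p 0.19). At 100 nM TFE3 alone was called (0.33 ± 0.10, edgeR adjusted p 0.0491), 1 higher and 0 lower against 3.25% and 1.58% of all genes, a call lost without replicate 2 or without replicate 3. At 1000 nM edgeR called none of the 37 (0 at unadjusted p under 0.05, and 0 with DESeq2), with 0% of all genes called either way.

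Miglitol inhibits alpha-glucosidases, of which lysosomal GAA is 1, and GAA mRNA did not pass the test at any dose. The wells held 81.4, 108 and 88.3 CPM at 100 nM, 82.7, 106 and 96.4 at 1000 nM and 78.4, 74.3 and 78.0 at 10000 nM, all inside the DMSO range of 62.2 to 113. The log2 FC was 0.09 ± 0.14 (95% interval -0.19 to 0.36, edgeR adjusted p 0.86), 0.12 ± 0.13 (-0.16 to 0.40, 0.81) and -0.22 ± 0.13 (-0.49 to 0.05, 0.27). With 3 wells a dose, differences within those intervals are not excluded. None of the other 36 genes was called by the main edgeR fit or by DESeq2 at any dose either. An edgeR fit with a replicate block called 11 of the 37 higher and 12 lower at 10000 nM, though replicate numbers did not pair the wells. The share of all genes called in that fit is not given here, so nothing is read from its counts. At unadjusted p under 0.05 edgeR had 0, 2 and 11 of the 37 over the rising doses. Over all genes the main edgeR fit called 0% higher and 0% lower at each Miglitol dose, with 987, 1568 and 4234 genes at unadjusted p under 0.05.

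Other lysosome and autophagy genes, 116 in 6 lists of which 115 were tested, were counted in the same fits. At 10000 nM Triptolide 74 were called higher and 26 lower as shares of mRNA, against 32.4% and 39.7% of all genes, a scale-dependent direction since mitochondrial scaling called 12 of all 18483 genes higher. Of 30 further hydrolases 28 were called higher and 0 lower, including the cathepsin CTSC (1.80 ± 0.11) and the sulfatase ARSB (1.73 ± 0.08). Falls were larger in size. The leucine sensor SESN2 fell to -6.40 ± 0.23 (edgeR adjusted p 8.5e-18), the lysosome positioning protein TMEM55B to -5.91 ± 0.17 (3.3e-19) and the vesicle tethering protein VPS18 to -5.12 ± 0.17 (4e-18).

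At 10000 nM Homoharringtonine 39 of these genes were called higher and 48 lower, against 37% and 37.3% of all genes. The autophagy list had 11 of 23 called higher and 4 lower, with the autophagosome marker MAP1LC3B at 2.58 ± 0.16 (edgeR adjusted p 3.9e-13) and VPS11 at 1.66 ± 0.08. The further hydrolases had 7 called higher and 15 lower, with the cathepsin CTSS at 2.20 ± 0.24 and the ganglioside activator GM2A at -2.26 ± 0.12. The mTORC1 list had 3 called higher and 11 lower, with the Rag GTPase RRAGB at 2.58 ± 0.13 and the arginine sensor CASTOR1 at -1.93 ± 0.18. In the list for sorting to the lysosome, 3 were called higher and 7 lower, with GNPTAB, which starts the mannose 6-phosphate tag on hydrolases, at -2.00 ± 0.27.

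With 10000 nM Nilotinib 11 of them were called higher and 1 lower, against 8.04% and 6.43% of all genes. CTSS rose by 2.06 ± 0.25 (edgeR adjusted p 2.3e-06), SESN2 by 1.02 ± 0.11 (1.6e-07) and MAP1LC3B by 0.92 ± 0.18 (0.00085). With 10000 nM Pyrazolanthrone edgeR called 6 higher and 0 lower, against 3.29% and 4.47% of all genes, among them SESN2 (0.93 ± 0.11) and the pump subunit ATP6V0A2 (0.83 ± 0.10). With 1000 nM MK-2206 edgeR called 1 higher and 0 lower, against 1.07% and 0.374% of all genes. The 1 was the autophagy gene GABARAPL1 (0.44 ± 0.08, edgeR adjusted p 0.0045). At 10000 nM, described without a test, GABARAPL1 stood at 0.97 ± 0.08 and the phosphoinositide-binding protein WIPI1 at 0.94 ± 0.10. SESN2 lay the other way there, at -0.47 ± 0.13.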

How the data were processed

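Each of the 72 wells has 1 gene table with 60371 rows, of which 92 are ERCC spike-ins. The authors made the tables with a standard RSEM workflow from stranded TruSeq libraries aligned to GRCh38, and the submitters' processing notes name RSEM, HTSeq and DESeq2; versions, annotation release and strand setting are not given in the sources used here. The deposited expected counts are RSEM's estimated reads per gene, not normalized. The deposited TPM and FPKM values were scaled by the authors to gene length and library, and TPM is used here for levels only. Deposited FPKM served to check the order of levels, and the deposited length columns were not used.

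Symbols and positions came from GENCODE 44 (56104 identifiers). Expected counts were rounded, filtered with filterByExpr, TMM-normalized and fitted with edgeR 4.0.16 (R 4.3.3), each of the 23 comparisons on its own wells. Benjamini-Hochberg adjustment was over all genes tested within a comparison, with none across comparisons. SE is the size of log2 FC over the root of F. Alternatives were DESeq2 1.42.0, library totals only, scaling to 13 mitochondrial mRNAs, no count filter, a replicate block, the 3 shallow wells (totals of 9628355 expected counts and lower) removed, a GC slope covariate, and each well left out. The steps were tested on simulated data. The 37 genes, the other lists and the naming rule were chosen with earlier results of these data known. The rule names up to 3 largest rises and falls per comparison, GAA with Miglitol, GPR137B with MK-2206, the 3 transcription factors, and up to 2 members each way of other lists. Further members named for their role were chosen after their values were seen.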

Additional observations from a re-analysis of the deposited data

How the results depend on the processing

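Counts of the 37 genes called changed by over 1.5 times under these alternatives. Scaling to mitochondrial mRNAs gave 18 with Homoharringtonine at 100 nM and 18 at 1000 nM, 8 for its trend and 27 for the Triptolide trend. DESeq2 gave 3 (Pyrazolanthrone 100 nM), 4 (Nilotinib 100 nM) and 2 (MK-2206 1000 nM). Library totals alone gave 0 for Pyrazolanthrone 100 nM. With no count filter there were 0 for Pyrazolanthrone 100 nM, 0 for Nilotinib 100 nM and 3 for Nilotinib 10000 nM. Without the shallow wells there were 2 for Pyrazolanthrone 100 nM, 10 for Nilotinib 10000 nM and 2 for MK-2206 1000 nM. The GC covariate gave 6 for Pyrazolanthrone 10000 nM, 6, 3 and 13 for the rising Nilotinib doses, and 2 for MK-2206 1000 nM. Counts for MK-2206 10000 nM are not listed here because the rule used that comparison. The few given above are a description only. Replicate numbers did not pair the wells, since same-numbered wells correlated at -0.0245 on average (from -0.422 to 0.416) and 16 of 52 correlated best with their own number. The replicate block gave 0 for Pyrazolanthrone 100 nM, 12 for Pyrazolanthrone 10000 nM, 0 for Nilotinib 100 nM, 10 for Nilotinib 10000 nM, 23 for Miglitol 10000 nM, 0 for MK-2206 1000 nM and 5 for the Triptolide trend.

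Leaving out 1 well gave 24 to 30, 29 to 31 and 32 to 33 for Triptolide, and 23 to 25, 26 to 27 and 25 to 27 for Homoharringtonine. It gave 0 to 4 for Pyrazolanthrone 100 nM and 0 for Pyrazolanthrone 10000 nM, 0 to 11 and 2 to 3 for Nilotinib 100 nM and 10000 nM, 0 to 2 for MK-2206 1000 nM, 2 to 12 for the Triptolide trend and 9 to 20 for the Homoharringtonine trend. Direct comparisons gave 25 to 33, 30 to 32 and 33 to 34.

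Of 102 values of the 37 genes that the naming rule set out, 84 kept their sign under every alternative. Further values printed above are outside that set, and some of them also turned. Among these are RRAGD at 10000 nM Triptolide and FLCN at 10000 nM Homoharringtonine. With Triptolide, mitochondrial scaling turned GAA to -0.17, -0.89 and -1.17, ARSA to -0.34, -1.02 and -1.24, CTSL at 100 nM to -0.27, GPNMB to -0.92 at both higher doses, and TFE3 to -1.75 and -2.09. At 100 nM GAA, ARSA and CTSL were not called lower under that scaling. ARSA in the direct comparison at 1000 nM turned to -0.15, and the trends of TFE3 and NPC2 to -0.037 and -0.094. GAA with Miglitol turned to -0.094 (replicate block) and -0.031 (GC covariate) at 100 nM, where leaving out 1 well gave -0.062 to 0.18, to -0.045 (replicate block) at 1000 nM and to 0.060 (GC covariate) at 10000 nM. GPR137B with 1000 nM MK-2206 ranged from -0.27 (without replicate 2) to 0.43 with 1 well left out. The mitochondrial case follows from its reference, and the cause of the others was not tested. Depth limits values from Triptolide 100 nM replicate 2, where 7 of the 37 genes had no count.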
